A study of Mus musculus with 29 samples.

Results

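The B cell identity genes examined here were Cd79a, Cd79b, Blk, Blnk, Cd22, Cr2, Ms4a1, Pax5 and Ebf1. They were followed in the lung methylome through every window that the deposited table names for one of them, which gave 168 of 260686 windows. The windows belonged to 8 of the 9 genes, namely 77 for Ebf1, 52 for Pax5, 16 for Blnk, 10 for Blk, 5 for Cd22, 4 for Cr2 and 2 each for Cd79a and Cd79b. Ms4a1 had 0 windows of its own name because its 4 overlapping windows carry the name of an antisense gene, 4930526L06Rik, and those windows are described by position, outside the counts.

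Whole-genome enzymatic methyl-sequencing (WGMS) gave the percentage of methylated CpGs (%DNAm) in windows of about 50 CpG dinucleotides in lung DNA from 29 Balb/c offspring, described by the series as females at 13 weeks of age. Dams had intranasal saline (Sham) or fine particulate matter (PM) before mating, through gestation and until weaning. Offspring were sensitised and then challenged by aerosol with ovalbumin (OVA), an egg protein that provokes allergic airways disease (AAD), or were not, which gave 4 groups: 7 libraries each for Sham, for Sham-OVA and for PM, and 8 for PM-OVA. The offspring themselves received no PM, the controls without OVA had nebulised saline, no group carries a transgene, and the tissue is labelled Lung (RML), which the study's methods describe as homogenised right lower lobe.

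B cells recognise antigen through a membrane immunoglobulin that signals through a pair of associated chains, Ig-alpha and Ig-beta, encoded by Cd79a and Cd79b. Kinases such as the Src-family member encoded by Blk and the adaptor encoded by Blnk carry that signal inwards, while surface proteins such as CD22, CD20 (Ms4a1) and complement receptor 2 (Cr2) tune or accompany it. The transcription factors Ebf1 and Pax5 establish and hold the B cell programme, and regulatory DNA of such genes is typically less methylated in B cells than in cells that do not use it.

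The window that gained methylation with OVA lay in intron 5 of Pax5 and is unusually dense in CpGs, so its first 300 bases are shown with every CpG in capitals. These bases are chr4:44664105-44664404 of GRCm38, plus strand, whereas Pax5 lies on the minus strand.
Pax5 intron 5: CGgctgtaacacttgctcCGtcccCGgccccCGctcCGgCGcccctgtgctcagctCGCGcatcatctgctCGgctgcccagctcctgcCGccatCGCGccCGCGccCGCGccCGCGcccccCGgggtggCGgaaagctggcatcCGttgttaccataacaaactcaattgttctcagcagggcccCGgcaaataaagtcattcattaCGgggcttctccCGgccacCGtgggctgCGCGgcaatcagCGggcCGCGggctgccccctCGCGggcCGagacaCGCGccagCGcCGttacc
The stretch holds 37 CpGs, against a median of 8 CpGs in the 250 bases upstream of 21938 protein-coding genes. The whole window was 367 bp long, lay 46016 bp inside the gene from its start and contained the annotated start of an antisense transcript, Gm12462.

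The start windows of Blk, Blnk and Cd79b lost methylation with OVA. The 250 bases upstream of the outermost annotated start of each are shown 5′ to 3′ on the gene's minus strand, again with CpGs in capitals, at chr14:63417038-63417287, chr19:40994536-40994785 and chr11:106314763-106315012.
Blk: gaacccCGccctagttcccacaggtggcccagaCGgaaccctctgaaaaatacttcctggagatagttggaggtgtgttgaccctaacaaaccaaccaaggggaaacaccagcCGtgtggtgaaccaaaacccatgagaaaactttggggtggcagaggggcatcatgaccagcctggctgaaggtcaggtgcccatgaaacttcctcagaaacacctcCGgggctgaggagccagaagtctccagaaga
Blnk: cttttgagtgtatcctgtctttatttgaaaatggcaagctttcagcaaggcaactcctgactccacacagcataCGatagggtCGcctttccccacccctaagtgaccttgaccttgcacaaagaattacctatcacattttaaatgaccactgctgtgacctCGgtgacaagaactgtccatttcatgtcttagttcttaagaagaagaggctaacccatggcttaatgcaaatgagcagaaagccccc
Cd79b: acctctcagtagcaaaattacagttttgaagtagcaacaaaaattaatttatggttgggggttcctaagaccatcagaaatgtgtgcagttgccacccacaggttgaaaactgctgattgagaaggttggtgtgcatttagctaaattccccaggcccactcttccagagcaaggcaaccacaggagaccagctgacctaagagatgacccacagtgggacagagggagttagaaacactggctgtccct
The stretches hold 4, 3 and 0 CpGs in that order, fewer than the median of 8 over protein-coding genes, whose lower quartile is 3. The Cd79b stretch lies upstream of the main start used for distances elsewhere. In the 500 bases centred on that main start Blk has 6 CpGs, Blnk 5 and Cd79b 11. The median of protein-coding genes, centred on their outermost annotated start, is 23. Sequences are of the C57BL/6J reference genome, and CpGs that differ in Balb/c were not examined.

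The octamer ATGCAAAT, read on either strand, is the site of the POU factors Oct1 and Oct2 and occurs in many B cell promoters. Within 500 bases centred on the start of the main transcript it was found in Blnk and Cd79b, shown here on the minus strand with 10 bases on both sides and the octamer or its complement in capitals, at chr19:40994541-40994568, chr19:40994334-40994361 and chr11:106314592-106314619.
Blnk, 23 bases before the start: ccatggcttaATGCAAATgagcagaaag
Blnk, 184 bases after the start: actggaagggATTTGCATgcccaataag
Cd79b, 80 bases before the start: ctgggtctcaATTTGCATggcaggaagg
No match was found in the other 7 genes. Of 21938 protein-coding genes, 1.96% had a match in 500 bases centred on their outermost annotated start. The core CCCNNGGG of the site read by Ebf1 was found in Cd22, Cd79b and Ms4a1, and in 26.0% of all genes around that outermost start. These matches describe the letters only.

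Member windows were 367 to 12512 bp long (median 4506.5 bp), 56 of the 168 touched an exon of the main transcript, and all 168 had a value in every library. The study's methods describe the genome-wide coverage as high, but the table has no counts, which leaves the depth of each window unknown. It holds no expression values, and transcripts were not analysed here, so the presence of B cells was not checked by them. Libraries had a value in 258952 to 260135 windows. One library stood apart: Sham replicate 1 had a value in 1224 Y chromosome windows, against 29 to 46 in the other 28 libraries, and results that rest on it are given with and without it. That count is at odds with the description of all offspring as females, and its source was not tested. Values are given below as mean ± SD, with n = 8 in PM-OVA and n = 7 in each other group. The labels do not tie offspring to litters, so p-values measure the spread between libraries.

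The first question was where OVA challenge changed methylation of these genes. A differentially methylated region (DMR) was a window with a limma adjusted p under 0.05 over all 259167 tested windows and whose group means were 10 or more percentage points apart. With OVA, 6 member windows fell and 1 rose in Sham offspring, and 6 fell and 1 rose in PM offspring. In all tested windows 0.296% were DMRs that fell and 0.479% DMRs that rose in Sham, and 0.321% and 0.263% in PM. The 7 windows were the same in both kinds of offspring. The falling windows were a pair each in Cd79b, Blk and Blnk, and the rising window was the CpG-dense one in Pax5. In homogenate, a change in the share of B cells and a change of methylation within cells cannot be told apart.

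**Figure D1:**
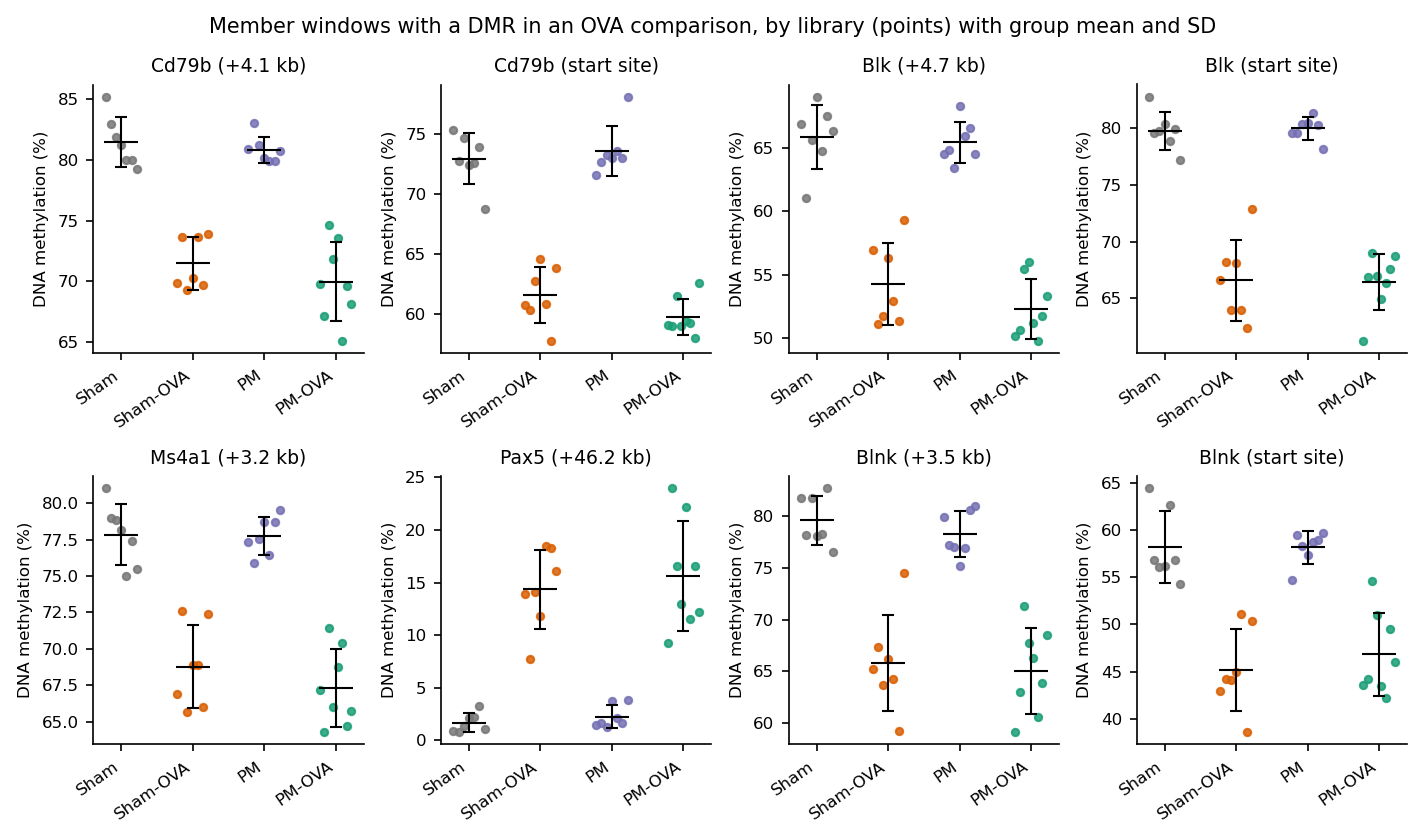
Percentage of methylation (vertical axes, scaled per panel and not starting at 0) of 8 windows in each library of the 4 groups, with the group mean and SD as a line and bars; the title of each panel gives the gene and the position of the window's centre from the start. Within each exposure all 7 windows named for members separated the libraries with OVA from those without, and the Pax5 window is the only panel in which OVA libraries lie higher.

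The signalling chain Ig-beta showed the change over its whole length. The window at the start of Cd79b (chr11:106312479-106316921, exons 1 to 3 and upstream) had 68.8, 72.8 and 75.3% as the lowest, median and highest value in Sham, and 57.8, 60.8 and 64.6% in Sham-OVA. In PM the values were 71.6, 73.1 and 78.2%, and in PM-OVA 58.0, 59.1 and 62.6%. Every OVA library lay below every library without OVA of the same exposure, by 4.24 points or more in Sham and 9.03 in PM. The means went from 73.0 ± 2.14% to 61.6 ± 2.33% in Sham, a log2 ratio of methylated to unmethylated signal of -0.73 (SE 0.07, limma adjusted p = 2.01e-08), and from 73.6 ± 2.1% to 59.7 ± 1.5% in PM (log2 ratio -0.89, SE 0.07, adjusted p = 5.73e-10).

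The downstream window of Cd79b (chr11:106308369-106312431, exons 4 to 6 with the 3′ end) behaved alike, with smaller differences in percentage points. Its log2 ratio was -0.79 in Sham, further from 0 than at the start, and -0.82 in PM, nearer to it. Its values had a range of 79.3 to 85.2% (median 81.2%) in Sham and 69.3 to 73.9% (median 70.3%) in Sham-OVA. The range was 79.9 to 83.0% (median 80.7%) in PM and 65.1 to 74.6% (median 69.7%) in PM-OVA. Groups again did not overlap, and the differences were -10.02 points in Sham (adjusted p = 1.91e-07) and -10.9 points in PM (adjusted p = 3.72e-08). The difference in Sham sat at the threshold: it was -9.62 points after centring each library on its median window (adjusted p = 2.48e-07), where the PM difference was -9.88 points (adjusted p = 2.36e-07), and -9.95 to -9.40 points when any one of 7 libraries was left out, namely Sham replicates 1, 2 and 3 and Sham-OVA replicates 1, 3, 4 and 6. The value of -9.40 points was without Sham replicate 1 (adjusted p = 5.15e-07).

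Ig-alpha moved the same way just short of the DMR threshold. The start window of Cd79a (chr7:24896468-24899115, exons 1 and 2) fell from 72.5 ± 2.13% to 63.7 ± 3.16% in Sham, a change of -8.83 points (adjusted p = 1.80e-05), and from 74.4 ± 1.11% to 64.4 ± 3.68% in PM, a difference of -9.93 points (adjusted p = 1.24e-06). Its OVA libraries did not overlap the others in either arm. The other Cd79a window, over exons 2 to 5, changed by -7.80 points in Sham and -9.80 in PM (adjusted p = 7.14e-06 and 1.09e-07). Averaged over both windows Cd79a went from 63.0 ± 1.10% in Sham to 54.7 ± 2.18% in Sham-OVA, and from 64.2 ± 0.831% in PM to 54.3 ± 3.25% in PM-OVA.

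Blk, the Src-family kinase, had the change at its 5′ end. Its start window (chr14:63414366-63418668, exon 1, intron 1 and upstream) had values of 77.2 to 82.7% (median 79.7%) in Sham, 62.4 to 72.9% (median 66.7%) in Sham-OVA, 78.1 to 81.3% (median 80.2%) in PM and 61.3 to 69.0% (median 66.9%) in PM-OVA. The groups with and without OVA were apart by 4.30 points in Sham and 9.14 points in PM, and Sham-OVA replicate 7 was the highest OVA library. The mean changed by -13.1 points in Sham (log2 ratio -0.95, SE 0.08, adjusted p = 4.85e-09) and by -13.5 points in PM (log2 ratio -0.97, SE 0.08, adjusted p = 1.24e-09).

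The next Blk window, in intron 1 (chr14:63410387-63414365), had 61.1 to 69.0% (median 66.3%) in Sham and 51.1 to 59.3% (median 52.9%) in Sham-OVA, and 63.4 to 68.3% (median 64.8%) in PM and 49.8 to 56.0% (median 51.5%) in PM-OVA. It separated the groups too, with differences of -11.6 points (adjusted p = 1.59e-07) and -13.1 points (adjusted p = 1.11e-08). Further along, falls and rises were both smaller. The window at 9261 bp had a difference of -2.10 points in Sham (adjusted p = 0.201) and -5.03 in PM (adjusted p = 0.00169), and the window at 27464 bp fell in both arms, with -2.45 and -2.81 points (adjusted p = 0.0179 and 0.00408). The windows centred 17924 and 22270 bp into Blk rose by 4.03 and 4.49 points in Sham (adjusted p = 0.00177 and 0.000269) and by 2.34 and 3.04 points in PM (adjusted p = 0.0437 and 0.00501), and over all 10 windows the Blk mean was 73.2 ± 0.544% in Sham and 71.0 ± 1.33% in Sham-OVA.

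Blnk, the adaptor, had the same arrangement. Its start window (chr19:40992265-40995567, exon 1 and upstream, with both octamers shown above) had values of 54.3 to 64.4% (median 56.8%) in Sham, 38.6 to 51.1% (median 44.3%) in Sham-OVA, 54.7 to 59.6% (median 58.7%) in PM and 42.2 to 54.6% (median 45.1%) in PM-OVA. The gap between groups was 3.23 points in Sham but 0.0658 in PM, where PM-OVA replicate 3 reached almost to PM replicate 1. The mean changed by -13.0 points in Sham (log2 ratio -0.74, SE 0.11, adjusted p = 7.32e-06) and by -11.3 points in PM (log2 ratio -0.65, SE 0.11, adjusted p = 2.11e-05).

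The adjoining window in intron 1 of Blnk (chr19:40989794-40992264) started higher and fell as far. Its values were 76.5 to 82.7% (median 78.2%) in Sham and 59.3 to 74.5% (median 65.2%) in Sham-OVA, and 75.2 to 81.0% (median 77.2%) in PM and 59.1 to 71.3% (median 65.1%) in PM-OVA. Groups did not overlap, and the highest OVA libraries were Sham-OVA replicate 7 and PM-OVA replicate 3. The differences were -13.8 points (adjusted p = 6.31e-07) and -13.2 points (adjusted p = 6.47e-07). Another intron 1 window, 12550 bp from the start (chr19:40979648-40984321), changed by -4.41 points in Sham (adjusted p = 0.00073) and by -7.91 points in PM (adjusted p = 1.5e-07). The next window, at 17540 bp, fell in Sham with -3.75 points (adjusted p = 0.00344), and the one at 22746 bp fell in PM with -4.07 points (adjusted p = 0.00612). Each missed an adjusted p of 0.05 in the other arm, and the smallest limma interaction adjusted p in Blnk was 0.593. Deeper in Blnk the 4 windows centred 35436 to 50073 bp from the start rose by 3.08 to 4.07 points in Sham and by 2.37 to 3.5016 points in PM, each with an adjusted p under 0.05.

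Among the surface proteins, Cd22, an inhibitory receptor that binds sialic acid, changed most at its start. The start window (chr7:30878532-30883193, exon 1 and upstream) went from 68.9 ± 2.18% to 62.0 ± 1.63% in Sham, by -6.87 points (adjusted p = 2.39e-05), and from 69.3 ± 2.1% to 62.6 ± 2.22% in PM, by -6.64 points (adjusted p = 1.61e-05). The groups were apart by 2.83 points in Sham and 0.0345 points in PM. The other 4 Cd22 windows had differences of -1.65 to 2.82 points, with a rise of 2.82 points over exons 7 to 12 in Sham (adjusted p = 0.0366) and a difference of -1.65 points over exons 2 to 4 in PM (adjusted p = 0.0156).

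Ms4a1, which encodes CD20, was measured in windows that carry the antisense gene's name. The window from 12 bp inside the gene through most of intron 1 (chr19:11259923-11266229) had 75.0 to 81.0% (median 78.2%) in Sham and 65.7 to 72.6% (median 68.9%) in Sham-OVA, and 75.9 to 79.5% (median 77.5%) in PM and 64.3 to 71.5% (median 66.6%) in PM-OVA. It separated the groups and changed by -9.06 points in Sham (adjusted p = 1.15e-06) and by -10.4 points in PM (adjusted p = 7.79e-08), where it was a DMR. The PM difference was -9.99 points without PM-OVA replicate 2 and -9.45 points after centring, and the interaction p by limma was 0.477 (adjusted p = 0.889). The neighbour that holds the start base and the region upstream was at 72.0 ± 1.45% in Sham and 71.2 ± 0.955% in Sham-OVA (adjusted p = 0.436), and its differences were -0.816 and -1.83 points. The window over exons 2 to 5 rose by 2.64 points in Sham (adjusted p = 0.00415) and differed by 1.19 points in PM (adjusted p = 0.150).

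Cr2, a receptor for complement fragments on mature B cells, showed no window past the test. Its start window (chr1:195170618-195178258) was at 43.2 ± 1.22% in Sham, 43.1 ± 0.981% in Sham-OVA, 44.4 ± 1.51% in PM and 42.8 ± 1.42% in PM-OVA. Over the 4 windows the smallest adjusted p was 0.251 in Sham and 0.1001 in PM, with 0 at an unadjusted p under 0.05 in Sham or PM, and the differences were -1.54 to 1.69 points. The largest in Sham was the window over exons 3 to 9, at 77.4 ± 2.42% in Sham and 79.0 ± 2.05% in Sham-OVA.

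The transcription factor Pax5 carried the change of opposite sign. The intron 5 window (chr4:44664105-44664471) was nearly unmethylated without OVA, with 0.794 to 3.27% (median 1.36%) in Sham and 1.28 to 3.83% (median 1.62%) in PM. With OVA it had 7.76 to 18.5% (median 14.1%) in Sham-OVA and 9.21 to 24.0% (median 14.8%) in PM-OVA. Every OVA library lay above every library without OVA, by at least 4.49 points in Sham and 5.38 points in PM, and the OVA libraries were spread more widely than the others. The mean went from 1.68 ± 0.908% to 14.4 ± 3.78% in Sham (log2 ratio 2.74, SE 0.24, adjusted p = 5.24e-09), and from 2.25 ± 1.09% to 15.6 ± 5.24% in PM (log2 ratio 2.57, SE 0.24, adjusted p = 4.89e-09).

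The windows on both sides of that one were examined after its values were seen. The adjoining window towards the start of Pax5, which holds more of the first exon of Gm12462, rose by 6.65 points in Sham and 7.94 points in PM (adjusted p = 0.000111 and 6.42e-06) from 33.6 and 34.3%. On the other side, the window at 47997 bp from the start rose by 4.10 and 3.43 points (adjusted p = 0.000822 and 0.00222). The next windows towards the start fell, with differences of -7.24 and -7.31 points at 41972 bp (adjusted p = 1.88e-07 and 6.96e-08) and of -6.97 and -5.86 points at 37770 bp (adjusted p = 1.75e-05 and 6.86e-05). The CpG-dense stretch and both its neighbours thus rose, and the fall began one window nearer the start.

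Other CpG-dense windows of Pax5 changed less. Pax5 has 6 windows with at least 30 CpGs per kb, all at 1.49 to 6.98% in Sham, and the other 5 of them had differences between -0.454 and 0.902 points with adjusted p over 0.05. Among the Ebf1 windows, 2 were as dense: the one centred 1760 bp from the start differed by -0.167 points in Sham and -1.07 in PM (adjusted p = 0.767 and 0.0327), and the one at 3001 bp by -1.91 and 0.707 points (adjusted p = 0.0321 and 0.418). The start window of Pax5 (chr4:44710377-44711506) was at 6.98 ± 0.498% in Sham, 7.88 ± 0.992% in Sham-OVA, 7.18 ± 1.25% in PM and 7.94 ± 0.568% in PM-OVA (adjusted p = 0.150 and 0.142). After centring the libraries its differences were 1.30 and 1.75 points with adjusted p of 0.048 and 0.0117. Over all 52 windows the Pax5 mean was 60.9 ± 0.469% in Sham and 61.5 ± 0.691% in Sham-OVA, with 61.4 ± 0.477% in PM and 61.5 ± 0.462% in PM-OVA. By adjusted p, 9 windows were lower and 15 higher in Sham (17.3 and 28.8%, against 22.3 and 13.3% of all windows), and 13 lower and 13 higher in PM (25% each, against 34.8 and 9.26%).

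Ebf1, the other factor, had falls and rises under 10 points spread over its 390775 bp. Its start window (chr11:44616946-44618322, named for a neighbouring gene model in the table) was unmethylated at 0.694 ± 0.22% in Sham and 1.29 ± 0.585% in Sham-OVA (adjusted p = 0.0937). The largest change was a rise in intron 6 (chr11:44738253-44741601), from 53.6 ± 2.54% to 62.9 ± 4.53% in Sham, by 9.29 points (adjusted p = 0.000102), and from 52.2 ± 2.2% to 62.2 ± 3.30% in PM, by 9.99 points (adjusted p = 2.29e-05). Sham and Sham-OVA overlapped there, whereas PM and PM-OVA did not. In Sham, 17 Ebf1 windows fell and 15 rose with an adjusted p under 0.05, and in PM 20 fell and 9 rose. These are 22.1 and 19.5% of its windows in Sham, against 22.3 and 13.3% of all windows, and 26.0 and 11.7% in PM, against 34.8 and 9.26%, so the falls were at or below the background. The lowest difference in Sham was -8.55 points, in intron 8.

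**Figure D2:**
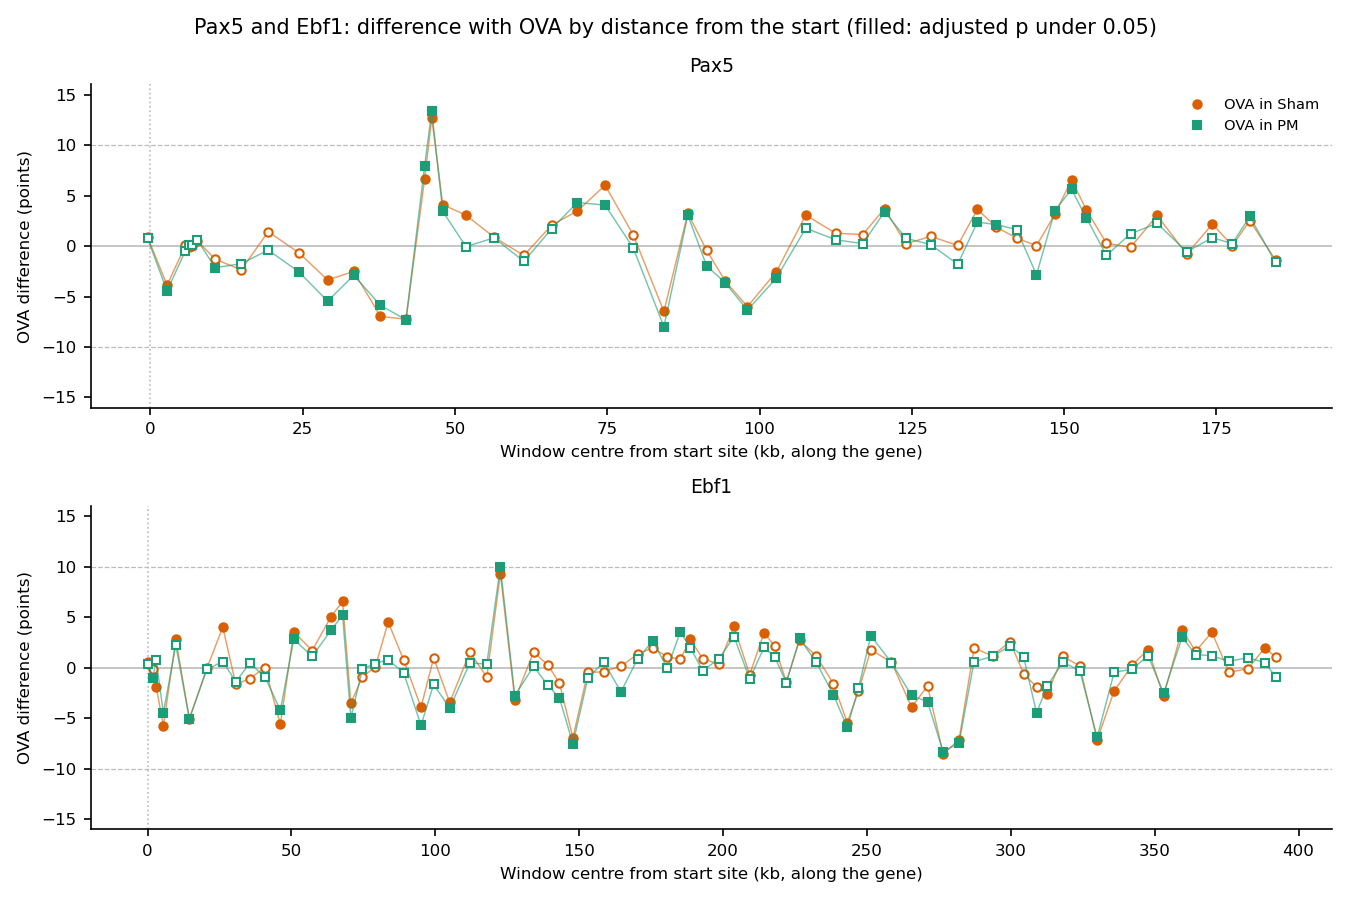
Difference of group means with OVA (vertical axis, percentage points) along Pax5 and Ebf1 (horizontal axis, distance of the window's centre from the start in kb), for Sham (circles) and PM (squares) offspring; filled symbols had an adjusted p under 0.05. One Pax5 window stands above 10 points in both series, at 12.7 and 13.4 points, and the largest Ebf1 rise reaches 9.29 and 9.99 points.

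Across all members, 38 windows fell and 37 rose in Sham with an adjusted p under 0.05, and 47 fell and 28 rose in PM. Over all tested windows 22.3% fell and 13.3% rose in Sham, and 34.8% fell and 9.26% rose in PM. The splits changed with the scaling of the libraries. The median difference of all windows was -0.414 points in Sham and -1.03 in PM, and after centring the members counted 35 lower and 53 higher in Sham and 31 lower and 60 higher in PM (20.8 and 31.5%, and 18.5 and 35.7%), while all windows gave 17.8% lower and 18.3% higher in Sham and 18.7% lower and 18.9% higher in PM. The median member difference was 0.161 points in Sham and -0.137 in PM, or 0.557 and 0.843 after centring.

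All 6 falling DMRs lay within 5000 bp of a start, whereas most falls by adjusted p alone lay further away. Of the 18 windows within 5000 bp of a start, a distance chosen after the values were seen, 12 fell and 0 rose in Sham and 13 fell and 0 rose in PM, with a median difference of -6.33 and -5.56 points. Windows equally near the start of another protein-coding gene fell in 14.1% of 50946 cases in Sham and 21.6% in PM and rose in 15.9 and 12.1%, with medians of 0.026 and -0.179 points. Those windows were not matched to the members in CpG density or starting methylation, so the contrast cannot be credited to the members being B cell genes. Of the 150 windows further away, 26 fell and 37 rose in Sham and 34 fell and 28 rose in PM, with medians of 0.328 and 0.189 points. After centring, the windows near a start gave 11 lower and 1 higher in Sham and 10 lower and 1 higher in PM.

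The genes differed in how methylated their start windows were to begin with. In Sham the start windows ran from Ebf1 (0.314 to 0.916%) and Pax5 (6.17 to 7.51%) through Cr2 (41.5 to 45.2%) and Blnk (54.3 to 64.4%) to Cd22 (66.6 to 71.9%), Ms4a1 (69.1 to 73.5%), Cd79a (69.5 to 76.4%), Cd79b (68.8 to 75.3%) and Blk (77.2 to 82.7%). Cd22, Ms4a1, Cd79a and Cd79b overlapped one another, and every other neighbour in this order was separated. The start windows of the transcription factors were thus low in methylation in whole lung, where those of the receptor and signalling genes were higher. Their lengths differed, from 1130 bp in Pax5 and 1377 bp in Ebf1 to 9190 bp in Ms4a1. The longer windows average more flanking sequence, so methylation at the start sites themselves was not compared.

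The second question was whether maternal PM exposure altered these genes. Without OVA, 0 of the 168 windows were DMRs between PM and Sham by limma, 11 had an unadjusted p under 0.05 against 5.79% of all windows, and the differences were -2.15 to 2.64 points. With OVA, 0 were DMRs between PM-OVA and Sham-OVA, 4 had an unadjusted p under 0.05 against 5.96% of all windows, and the differences were -3.49 to 1.95 points. The interaction, which subtracts the OVA difference in Sham from that in PM, gave 0 DMRs and 8 windows with an unadjusted p under 0.05 against 7.4% of all windows.

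The windows with the smallest p in these comparisons were outside the DMRs, and the p-values are from limma. In intron 1 of Blnk (chr19:40979648-40984321) PM was higher than Sham by 2.64 points, 81.3 ± 1.22% against 78.6 ± 2.47% (limma adjusted p = 0.812). In intron 6 of Ebf1 (chr11:44758234-44762710) PM-OVA was lower than Sham-OVA by 2.39 points, 49.1 ± 1.41% against 51.5 ± 2.74% (limma adjusted p = 0.825). In intron 5 of Pax5 (chr4:44656521-44660830) the OVA difference was 3.06 points in Sham and -0.0543 in PM (limma adjusted p of the interaction = 0.571). For the 7 DMR windows the smallest interaction p was 0.120, at the start of Cd79b, with an adjusted p of 0.735.

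The Sham and PM arms share no library, so their OVA differences were set side by side. All 57 member windows with an adjusted p under 0.05 in both arms had the same sign, as did 140 of all 168 windows. Over the 168 windows Pearson's r between the arms was 0.957 and Spearman's rho 0.911. The windows lie in 8 genes and are not independent, so this describes the profile along the genes and is given without a test.

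**Figure D3:**
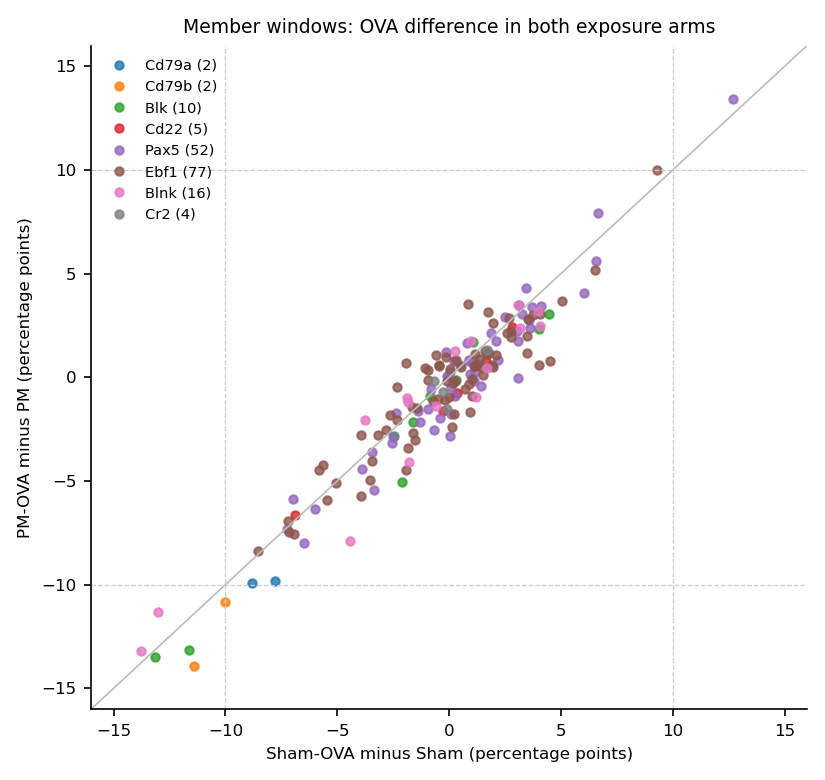
Difference of group means with OVA in PM offspring (vertical axis, percentage points) against that in Sham offspring (horizontal axis) for the 168 member windows, coloured by gene with the number of windows in brackets; the diagonal marks equal differences and dashed lines 10 points. The points run along the diagonal (r = 0.957), with 6 windows beyond 10 points in the lower left corner and 1 in the upper right.

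Libraries of one group varied together in the falling windows. The mean of the 7 DMR windows was 60.5 to 65.3% in Sham, 61.8 to 63.7% in PM, 51.1 to 58.7% in Sham-OVA and 50.3 to 57.6% in PM-OVA, where Sham-OVA replicate 7 and PM-OVA replicate 3 were the highest. The highest Sham value was that of replicate 1, without which Sham reached 63.4%. After group means were removed, the 12 pairs of falling windows in different genes had r of 0.198 to 0.735 (median 0.477) over 29 libraries, whereas the Pax5 window had r of -0.0728 to 0.0717 with the 6 falling windows. Without Sham replicate 1 these ranges were 0.179 to 0.733 (median 0.437) and -0.0627 to 0.0945 over 28 libraries. Libraries share depth and cell composition across windows, so these values are a description.

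The windows of other genes most like that mean, by r of the same within-group deviations over 29 libraries, were in Gm9118 (0.832), Hdac9 (0.815), Gm12148 (0.810), Plcg2 (0.807) and Dgkb (0.804). Over all windows the median r was 0.0577. Without Sham replicate 1 the same windows had r of 0.802 to 0.835, and only Gm9118 and Dgkb stayed among the 5 most alike genes. Plcg2, which encodes the phospholipase that B cell receptor signalling activates, is also on the pathway list that follows.

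Other genes of B cell receptor signalling and the B cell programme were taken as a list of 52 genes, of which 49 had windows. Use of these genes by other cell types was not examined, so the list does not stand for B cells alone. Of 675 windows tested, 31 were DMRs that fell and 8 DMRs that rose in Sham, and 34 fell and 7 rose in PM, which is 4.59 and 5.04% lower against 0.296 and 0.321% of all windows, and 1.19 and 1.04% higher against 0.479 and 0.263%. In 29 windows the call was made in both arms, 24 lower and 5 higher, with 0 of opposite sign. The median difference of the list was -0.204 points in Sham and -0.688 in PM. The list was chosen with earlier results of these data known, so its shares are a description and no test of enrichment.

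DMRs that fell included genes of transcription factors and of signalling proteins. A window 1517 bp inside Ikzf1, which encodes the lymphoid regulator Ikaros, fell from 62.0 ± 1.65% to 38.5 ± 5.76% in Sham, by -23.5 points (adjusted p = 3.86e-09), and from 60.9 ± 3.02% to 38.7 ± 4.02% in PM, by -22.2 points (adjusted p = 2.96e-09). A Bach2 window had differences of -16.5 points in Sham and -17.6 in PM, a window 755 bp inside Pou2f2, which encodes Oct2, -15.5 and -16.9 points, and the start window of the coactivator Pou2af1 -12.1 and -13.7 points. Signalling genes fell too, by the same test, with -15.95 and -14.4 points in the kinase gene Syk, -17.01 and -17.9 points in Plcg2 and -17.0 and -16.9 points in the adaptor gene Pik3ap1. The start window of Fcgr2b, an inhibitory Fc receptor, had -13.5 and -10.97 points. Other windows of Bach2, Plcg2, Pou2f2 and Spi1 were DMRs that rose. A Cd37 window was a rising DMR in Sham, by 10.02 points, but differed by 2.53 points in PM (adjusted p = 0.000783 and 0.343). Its limma interaction had an adjusted p of 0.631, and another Cd37 window fell in both arms. The other pathway windows called in a single arm had the same sign and an adjusted p under 0.05 in the other arm. The largest rise was in Tnfrsf13b, which encodes the receptor TACI, by 19.4 points in Sham (adjusted p = 4.15e-06) and 17.6 points in PM (adjusted p = 6.73e-06), 20371 bp inside the gene.

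Lists for other cells that lung homogenate can hold were counted in the same way. The T cell list (138 windows) and the myeloid list (50 windows) had 0 DMRs in either arm, and at the share of all windows (0.775% in Sham and 0.584% in PM) lists this short would hold few or none. An unadjusted limma p under 0.05 was met by 75 and 19 windows in Sham and 77 and 21 in PM. These are 54.3 and 38% in Sham, against 45% of all windows, and 55.8 and 42% in PM, against 51.4%. By adjusted p, 31.2% of T cell windows fell in Sham and 42.0% in PM, against 22.3 and 34.8% of all windows, while 22% of myeloid windows fell in Sham and 28% in PM. The T cell shares were larger than the 22.6 and 28% of the B cell identity genes, with no test of that difference. The plasma cell list (42 windows) had 1 lower and 1 higher in Sham and 2 lower and 1 higher in PM, among them in Prdm1, which is also on the pathway list. The eosinophil list (16 windows) had 2 lower in Sham (12.5%), in Epx and Il5ra, and 0 in PM, where the same windows differed by -9.22 points in Epx and -9.18 points in Il5ra (adjusted p = 1e-06 and 2.94e-06), short of the 10 points. The epithelial list (58 windows) had 1 higher in Sham, in Krt8, and 0 in PM, and the endothelial list (146 windows) had 1 lower and 2 higher in Sham and 1 lower and 1 higher in PM, in Pecam1 and Cdh5. The Krt8 and Cdh5 windows also rose in PM, by 8.18 and 9.59 points (adjusted p = 2.13e-05 and 2.65e-05), and the Prdm1 window that was a DMR in PM alone fell by 7.89 points in Sham (adjusted p = 7.82e-07). For these 5 windows the limma interaction had an adjusted p of 0.728 or more. These lists are counted by methylation alone, and the part of any cell type in the change of the B cell genes was not tested.

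**Figure D4:**
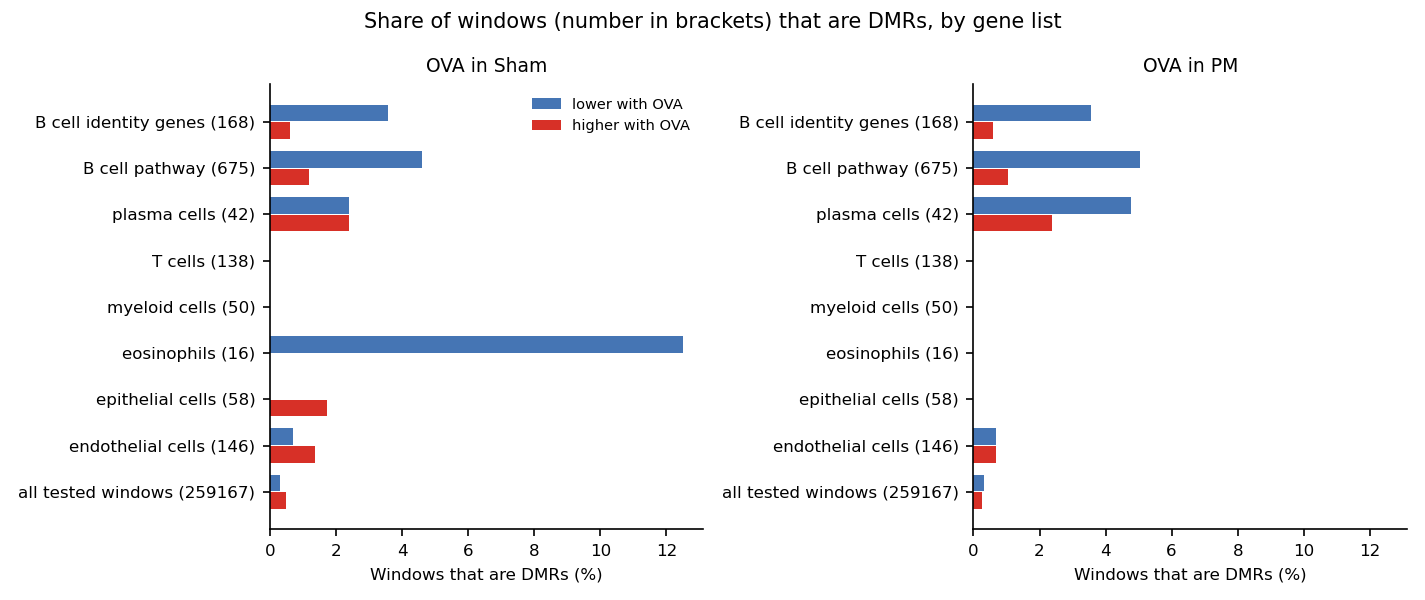
Share of tested windows (horizontal axis, percent) that were DMRs lower (blue) or higher (red) with OVA in Sham and in PM offspring, for the member genes, 7 gene lists and all windows, with the number of windows in brackets. The eosinophil list in Sham (12.5% lower), the members (3.57% lower in both arms), the pathway list (4.59 and 5.04%) and the plasma cell list (2.38 and 4.76%) lie above all windows (0.296 and 0.321%), as does the endothelial list (0.685% in both arms). The eosinophil list is at 0 in PM. Members and lists were chosen with earlier results of these data known. The plasma, endothelial and eosinophil lower shares rest on 1 or 2 windows each, and the T cell and myeloid lists at 0 are too short to be told from all windows. The lower endothelial window lies upstream of Pecam1 and overlaps Milr1.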

How the data were processed

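WGMS measured %DNAm in lung DNA of 29 libraries, grouped by their titles. According to the methods, the authors used Trim Galore for trimming and DRAGEN for mapping to GRCm38 and for methylation calls. Deposited values are percent methylation per window, averaged by the authors over 100 CpG cytosines, and each window overlaps an Ensembl gene. The study gives a genome-wide coverage, but the table has no counts, so the depth of each window is unknown and precision rests on the number of libraries.

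Windows with at least 3 values in every group were tested. After 1 percentage point was added to the methylated and the unmethylated percentage, their log2 ratio was fitted by 4 group means over the 29 libraries in limma (version 3.58.1, in R 4.3.3), with its moderated 2-sided test and Benjamini-Hochberg adjustment over all windows. The code was tested on simulated data. Exons and starts came from GENCODE M21, the main transcript being the best-supported coding one. Sequence came from the RefSeq GRCm38.p6 assembly, and its promoter set had an entry for 6 of the 9 genes.

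Windows given value by value were all member DMRs, each member's start window, the Ms4a1 windows by position, the largest OVA difference in Sham of members without a DMR, and the smallest p of each other comparison. The members and lists were chosen with earlier results of these data known. The list of 52 pathway genes excludes the members. Replicate numbers are those of the titles, which differ from the numbers in the library names for some Sham-OVA and PM-OVA libraries, and the check and the replicate block used the titles. Same-numbered libraries were not paired. Over 42 such pairs from different groups the correlation of within-group deviations was -0.0409 to 0.104 (median 0.0141). Over 273 pairs of different number it was -0.100 to 0.0868 (median -0.00227). Pairing by the numbers in the library names was not examined. Alternatives covered scale, offset, centring, filters, thresholds, gene assignment, the samples fitted, a replicate block and leaving out each library.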

Additional observations from a re-analysis of the deposited data

Results flagged for a closer look

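In the 21 windows given value by value, each of the 84 sets of 7 or 8 libraries was checked for a library far from the others by Dixon's ratio at 95%, and 5 were marked; chance marks about 1 in 20. In the start window of Cd79b, PM replicate 7 was at 78.2%, with the other PM libraries at 71.6 to 73.6%. In the downstream window of Cd79b, PM replicate 2 was at 83.0%, with the others at 79.9 to 81.2%. In the Ms4a1 window over exons 2 to 5, Sham replicate 4 was at 77.8% against 73.6 to 74.8%, and in the Cr2 window over exons 3 to 9 the same library was at 82.2% against 74.8 to 77.7%. In the intron 6 window of Ebf1 with the smallest p for PM with OVA, Sham-OVA replicate 3 was at 45.8% against 50.3 to 53.6%. No explanation was tested for these values.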

How the results depend on the processing

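The 7 member DMRs of each OVA comparison were 6 to 10 in number under every alternative except a smaller minimum difference, with 28 in Sham and 28 in PM at 5 points, and 75 and 75 with no minimum difference, since more windows then pass by construction. Leaving out each library in turn gave 6 to 8 DMRs in Sham and 7 to 10 in PM, and 0 for the PM comparisons and the interaction. The count in Sham was 6 without any one of Sham replicates 1, 2 and 3 or Sham-OVA replicates 1, 3, 4 and 6, the downstream Cd79b window then falling short of 10 points, and 8 without Sham-OVA replicate 7. After centring, that Cd79b window was short of 10 points in both arms, while an Ebf1 window reached them in PM. In PM the count was 10 without PM replicate 1 or without PM-OVA replicate 3. Sharing only a number, libraries were fitted with a replicate block as an alternative: it gave 7 DMRs in Sham and 7 in PM, and 9 of the 29 libraries correlated best with a library of their own number, where an even choice among the 21 or 22 libraries of other groups would give 3.86. Single windows given value by value kept their sign wherever they passed the test, and 8 refits without 1 library and 5 other refits took a window past an adjusted p of 0.05 that had missed it, in Ms4a1, Ebf1, Pax5 and Cr2. The depth of each window is unknown, windows of several kb average short elements, litters are not labelled, and homogenate mixes cell types, which limits every value given here.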

Other observations

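Genes of eosinophils, the granulocytes that gather in allergic airways, were counted in the same way. Of 16 windows in Ccr3, Epx, Prg2, Il5ra and Siglecf, 9 fell and 0 rose in Sham with a limma adjusted p under 0.05, and 10 fell and 0 rose in PM, against 22.3 and 34.8% lower in all windows. The median difference was -4.35 points in Sham and -4.01 in PM, where all windows had -0.414 and -1.03. The start window of Il5ra, the receptor for interleukin 5, was at 58.1 ± 2.2% (mean ± SD) without OVA and 47.3 ± 3.3% with OVA in Sham offspring (n = 7 each), and at 56.5 ± 1.96% (n = 7) and 47.3 ± 2.55% (n = 8) in PM offspring. T cell genes had medians of -0.896 and -1.37 points. These values are given without an explanation.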
